A study of Mus musculus with 9 samples.

Results

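Transcripts of 35 genes of nerve-cell synapses and neurotransmission were measured by RNA sequencing of mouse anterior lens capsule, a basement membrane that covers the lens front, together with its attached epithelium. The genes were listed by name, for vesicles, release machinery, ribbon synapses, transmitters and their receptors. The rule uses no measured value, but the list was drawn up with earlier results of these data known. All 35 of 35 names are among the 17527 gene symbols of the count table, and all 35 were among the 13711 genes with enough counts to be tested. Of 9 libraries, 3 each came from aged mice given EGCG (epigallocatechin gallate, a green tea catechin), aged control mice and young control mice. None of strain, genotype, age, dose, route or duration is given in the sources used here. It is also not stated whether the 3 libraries of a group are 3 animals, pools or repeats, so a p-value reflects the spread of these samples alone, and that spread may be technical. The series title ties EGCG to age-related cataract, and the comparisons ask which transcripts differ with age and with EGCG in aged mice.

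At a chemical synapse, transmitter is loaded into vesicles by membrane transporters, and vesicles fuse with the cell membrane when calcium enters through voltage-gated channels. The fusion machine is a bundle of SNARE proteins (a vesicle-side VAMP, a membrane-side syntaxin and a SNAP protein), clamped by complexins and triggered by synaptotagmins. Photoreceptors and bipolar cells of the retina use a special form, the ribbon synapse, in which a protein plate holds vesicles at the release site and release is graded and continuous. The lens has no nerve cells and no synapses of its own, and the retina lies behind it in the same eye. Some of the 35 genes also serve vesicle fusion in cells that are not nerve cells.

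Levels are TMM-scaled CPM, that is counts divided by a library's size after that size was adjusted by TMM, edgeR's scaling on the bulk of genes. Differences are log2 fold changes from edgeR's quasi-likelihood test, with Benjamini-Hochberg adjustment over all 13711 genes, and a gene was called at an adjusted p under 0.05. Library totals were between 13184169 and 16528179 counts, and 3 counts correspond to 0.183 to 0.232 CPM. Lens markers were high in all groups, and on the TMM scale highest in aged control. The 5 lens epithelium markers were Foxe3, Pax6, Cdh1, Cryaa and Cryab. They summed to 123000 CPM with EGCG, 153000 CPM in aged control and 84600 CPM in young control. That list includes the crystallin genes Cryaa and Cryab, so its sum is not taken as a measure of epithelium. The 11 lens fibre markers summed to 91000, 108000 and 87900 CPM. By share of counts, they took 8.83% to 9.15% with EGCG, 9.62% to 9.9% in aged control and 9.86% to 9.96% in young control. Of the epithelium markers, 5 of 5 fell with EGCG against aged control and 4 of 5 rose with age, with library sizes alone as well. With lens fibre genes as the scale, 2 of 5 fell with EGCG and 4 of 5 rose with age. Of the 11 fibre markers 9 fell with EGCG and 9 rose with age, and 7 and 4 with library sizes alone. Their part in the members' changes was not tested. A member had between 7 and 8735 counts in a library, and 34 of the 35 reached 10 CPM in the mean of at least 1 group (Syn2 did not).

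The 35 genes were lower in aged control than in young control without exception, and 33 of them were higher with EGCG than in aged control. In the comparison of aged EGCG with aged control, 33 members rose, 0 fell and 2 (Unc13b and Slc6a9) were not called, with a median log2 fold change of 1.67 (3.19-fold) and a range of 0.07 to 3.05. Of all genes tested, 13.8% rose in that comparison and the median log2 fold change was 0.00. Of all genes called there, 57.4% were higher, and 83.5% with library sizes alone. A rise of at least 2-fold was called for 27 members, against 7.41% of all genes. No EGCG library overlapped an aged control library in 33 members, all but Pclo and Unc13b, against 33.5% of all genes in either direction.

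In aged control against young control, all 35 members fell (34, without Unc13b, once the trend of level with gene length was removed), with a median log2 fold change of −3.54 (11.6-fold) and a range of −5.29 to −0.66. Of all genes tested 33.8% fell, and the median was 0.02. A fall of at least 2-fold was called for 33 members, all but Unc13b and Slc6a9, against 19.1% of all genes. With EGCG the members did not reach the young level: all 35 were lower in aged EGCG than in young control, by a median of −1.33 on the log2 scale (2.51-fold) and a range of −2.78 to −0.42. Of all genes 31.4% were lower there, with a median of −0.02, and 26 members were lower by at least 2-fold, against 14.5% of all genes. Both comparisons of EGCG use the same 3 EGCG libraries, and both comparisons of aged control the same 3 aged control libraries, so the counts are not independent. In 33 of 35 members every EGCG library lay above every aged control library and below every young one, the exceptions again being Pclo and Unc13b. How many of all genes show that order was not counted. Lack of overlap with young control was common. Of all 13711 genes tested, 9892 had no overlap in either direction between aged and young control, and 9366 between EGCG and young control.

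**Figure D1:**
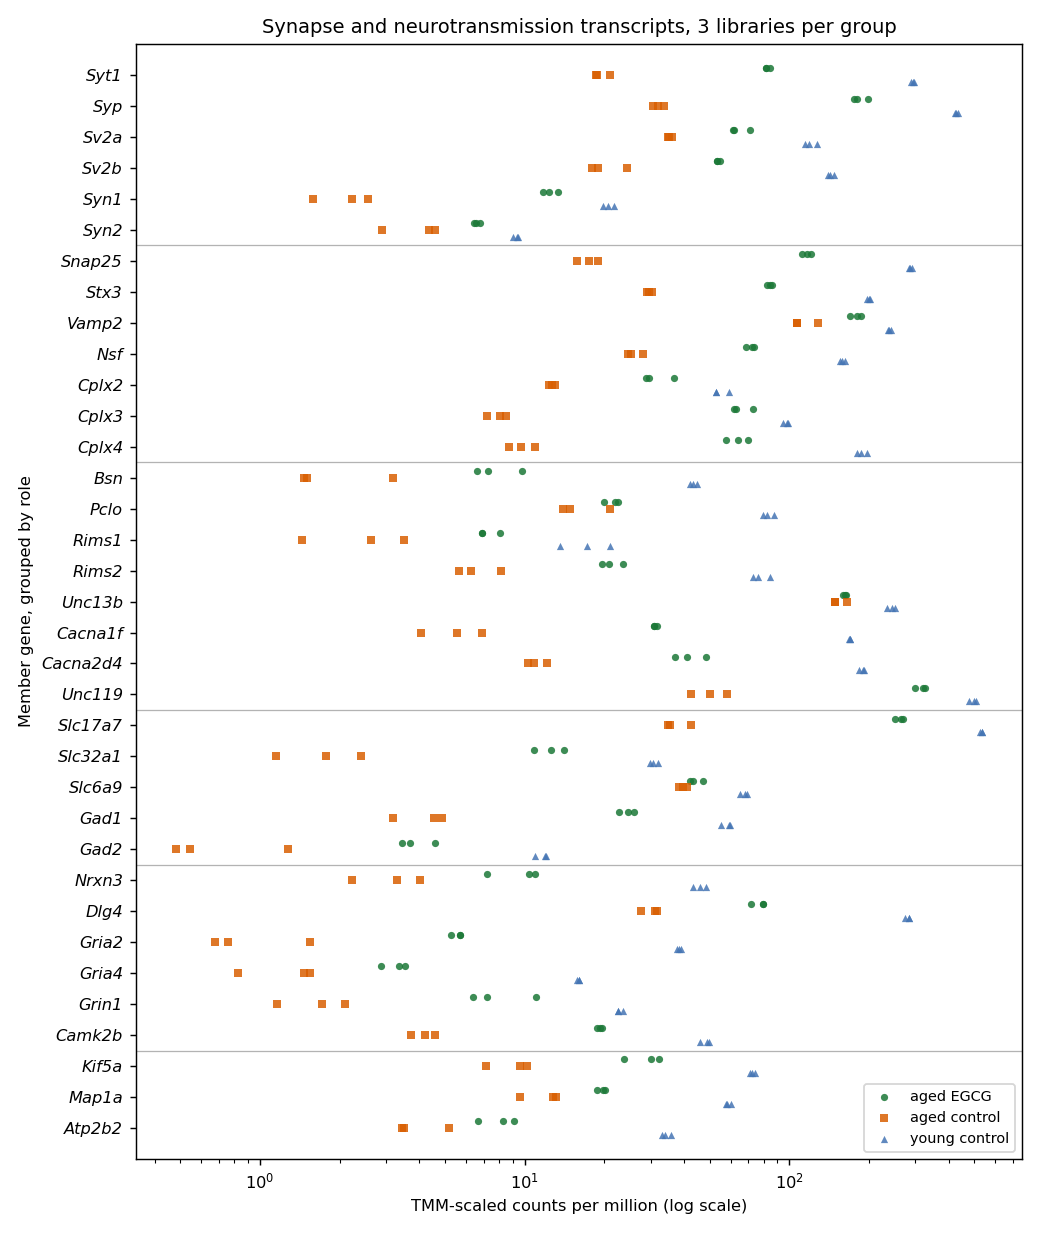
TMM-scaled CPM (log axis) of the 35 members in each of the 9 libraries, ordered by role, with 1 point per library for aged EGCG, aged control and young control. For most members the 3 groups form separate clusters, with young control highest and aged control lowest, while Unc13b, Slc6a9 and Vamp2 lie close together.

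Added over the 35 members, the level was 2150 ± 29.2 CPM with EGCG, 731 ± 21.2 CPM in aged control and 4870 ± 25.3 CPM in young control (SD, n = 3 each). The EGCG sum was 2.94 times the aged control sum, and the 2 sums were 44.1% and 15% of the young sum. As a share of counts, the members took 0.21% to 0.214% of an EGCG library, 0.0625% to 0.0696% of an aged control library and 0.546% to 0.553% of a young control library. The fall with age was uneven: relative to young control, aged control kept 2.6% of Gria2, a median of 8.64% over the members and 63.3% of Unc13b. Aged control was under 10% of young in 18 members, between 10% and 20% in 10, and over 20% in 7 (Sv2a, Syn2, Vamp2, Cplx2, Unc13b, Slc6a9 and Map1a). With EGCG the range was 14.5% of young (Gria2) to 74.6% (Vamp2), with a median of 39.8%. The spread between libraries was widest in aged control, with a median coefficient of variation over members of 6.35% with EGCG, 16.6% in aged control and 2.85% in young control. The members had the fewest counts in aged control.

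Markers of most retinal cell types moved with the members. The summed level of 10 rod photoreceptor genes, among them Gnat1 and Pde6b, was 8530 to 8660 CPM with EGCG, 1070 to 1140 CPM in aged control and 18900 to 19000 CPM in young control, and all 10 were called in all 3 comparisons in the direction of the members. The EGCG and aged control rod sums were 45.5% and 5.86% of young control. Rod genes had log2 changes of 2.61 to 3.80 with EGCG against aged control, a range that Cplx3, Slc17a7, Slc32a1, Snap25, Cplx4 and Unc119 entered. With age the rod range was −4.78 to −3.85, and the estimates of Gria2 and Cacna1f lay below it. The Cacna1f interval (−5.15 to −4.75) reached into the rod range. The lowest changes with age among cone, ganglion and horizontal cell markers were −5.64, −5.24 and −5.97. Cone markers (6 genes) summed to 184, 15.7 and 402 CPM with EGCG, in aged control and in young control, ganglion cell markers (6) to 87.4, 20 and 147 CPM, and bipolar markers (8) to 222, 141 and 451 CPM. Horizontal cell markers (4) summed to 6.31, 1.31 and 18.7 CPM, with Onecut1 at 0 in all 3 aged control libraries. All 6 cone markers were called in all 3 comparisons in the direction of the members. Of the 8 bipolar markers 7 rose with EGCG against aged control and 8 fell with age. Of the 6 ganglion cell markers 5 rose with EGCG and 5 fell with age, but only 2 were lower with EGCG than in young control. Of the 3 horizontal cell markers tested, 2 rose with EGCG and 3 fell with age. Of 5 Müller glia markers, 4 fell and Apoe rose with age (median log2 −1.07), and 2 rose and Apoe fell with EGCG against aged control (4 rose with library sizes alone). Their sum, most of it Apoe and Glul, was 2100, 2390 and 2420 CPM. Amacrine markers (7) summed to 253, 252 and 384 CPM, but 3 of them (Slc6a9, Gad1 and Slc32a1) are members here and Pax6 is also a lens gene. Gene by gene, 4 of the 7 rose and 2 fell with EGCG against aged control (median log2 2.07). With age 5 fell and 1 rose (median −3.80). The part of retinal cells or their RNA in the members' changes was not tested. In bulk tissue, fewer cells of a type and less RNA per cell cannot be told apart.

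**Figure D2:**
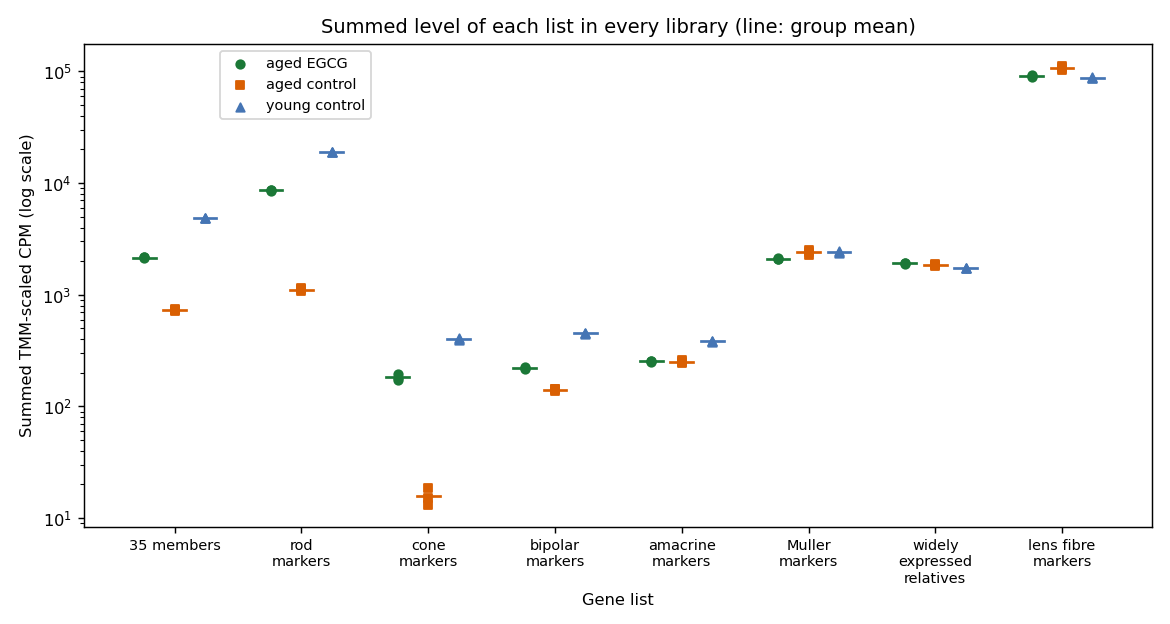
Summed TMM-scaled CPM (log axis) of the 35 members, of cell type marker lists and of relatives listed as widely expressed. There is 1 point per library and a line at the group mean, for aged EGCG, aged control and young control. The members (means 2150, 731 and 4870 CPM) and the rod, cone and bipolar lists are lowest in aged control and highest in young control, while the sums of the Müller, relatives and lens fibre lists lie close together; the Müller sum is mostly Apoe and Glul, which moved in opposite directions.

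Per length, the highest members in young control were Unc119, Slc17a7 and Syp, with mean FPKM (counts scaled for gene length and library size) of 203, 87.4 and 73.3 with EGCG, 29.5, 11.5 and 11.6 in aged control and 364, 204 and 194 in young control. All 3 are abundant in photoreceptor terminals. The sequence before a RefSeq start of each is given because they lead the list, and because TAATCC, the core of sites bound by the OTX and CRX homeodomain factors of photoreceptors, was searched in the members' promoters. TAATCC or its reverse complement GGATTA is in capitals. Sequences are RefSeq's, build GRCm38.p6, plus strand, which is the coding strand of all 3 genes. They lie at chr11:78345334-78345583 for an alternative start inside Unc119, at chrX:7638330-7638470 for Syp (141 bases, ending where the GENCODE vM21 gene begins) and at chr7:45163671-45163920 for Slc17a7. None of the 3 stretches overlaps a GENCODE exon.
Unc119: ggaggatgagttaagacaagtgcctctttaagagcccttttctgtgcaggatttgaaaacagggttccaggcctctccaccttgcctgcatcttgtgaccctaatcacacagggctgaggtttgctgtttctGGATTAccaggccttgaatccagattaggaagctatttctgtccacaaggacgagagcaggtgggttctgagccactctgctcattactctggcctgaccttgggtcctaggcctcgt
Syp: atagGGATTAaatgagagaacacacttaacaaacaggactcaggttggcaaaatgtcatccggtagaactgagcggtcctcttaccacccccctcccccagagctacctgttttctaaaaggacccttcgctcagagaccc
Slc17a7: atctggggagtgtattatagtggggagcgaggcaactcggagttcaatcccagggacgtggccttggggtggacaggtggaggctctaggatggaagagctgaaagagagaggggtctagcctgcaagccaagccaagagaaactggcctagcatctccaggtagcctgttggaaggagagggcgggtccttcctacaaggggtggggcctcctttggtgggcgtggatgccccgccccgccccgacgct
The Unc119 stretch holds 1 match, 118 bases before the start, and was chosen for it among 3 Unc119 promoters, of which the other 2, that at the 5′ end of the gene included, hold none. The Syp stretch holds 1 match, 246 bases before the RefSeq start at chrX:7638580. That start lies past the end of the printed Syp stretch, inside the GENCODE gene. The Slc17a7 stretch holds none. Both matches are on the reverse strand.

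Promoters of 300 bases (250 before to 50 after a start) were found for 29 of the 35 members. TAATCC, on either strand, was in a promoter of 6 of these 29 (20.7%: Syp, Sv2b, Stx3, Unc119, Gad1 and Dlg4), against 8.14% of all 27025 genes with a promoter. Counted per promoter, 7 of 44 member promoters (15.9%) held it, against 7.06% of all 32851. TGACGTCA, the cyclic AMP response element, was in 1 of 29 members (3.45%, Syn1, 159 bases before the start), against 2.03% of all genes. The median GC content was 60.1% over member promoters and 52.7% over all promoters. A match of letters is a description of the sequence and does not show that a factor binds there.

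The 6 vesicle proteins were all called in all 3 comparisons. Synaptotagmin-1, the calcium sensor of fast release (Syt1, 10:108497650-109010982, minus strand, GRCm38), had 81.4, 82 and 84.7 CPM in the EGCG libraries, against 18.6, 18.8 and 21.1 CPM in aged control and 293, 288 and 297 CPM in young control. It was 4.25-fold higher with EGCG than in aged control (log2 2.09, SE 0.0694, adjusted p 7.58e-29) and 15-fold lower in aged than in young control (log2 −3.91, SE 0.0669, adjusted p 2.26e-41). Synaptophysin, an abundant membrane protein of transmitter vesicles (Syp, X:7638471-7653256, plus strand), had 176, 199 and 180 CPM with EGCG, 32, 30.6 and 33.5 CPM in aged control and 423, 434 and 428 CPM in young control libraries. The 3 groups were far apart in both genes, with a 5.78-fold rise with EGCG and a 13.4-fold fall with age for Syp.

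The SV2 glycoproteins of transmitter vesicles fell less than Syt1 and Syp. Sv2a had 62, 71.1 and 61.1 CPM in EGCG-treated, 35.2, 36.1 and 34.9 CPM in aged control and 119, 115 and 127 CPM in young control libraries. Sv2b, the form present at photoreceptor ribbon synapses, had 53.3, 53.1 and 54.9 CPM with EGCG, 18, 18.9 and 24.4 CPM in aged control and 142, 140 and 148 CPM in young control libraries. Groups did not overlap in either gene, and the fall with age was 3.39-fold for Sv2a and 7.04-fold for Sv2b. EGCG libraries were 1.83-fold and 2.64-fold above aged control.

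The synapsins tether vesicles to actin at conventional synapses and are absent from ribbon terminals. Syn1 had 12.4, 11.7 and 13.4 CPM in the EGCG libraries, against 1.58, 2.22 and 2.56 CPM in aged control and 21.8, 19.7 and 20.7 CPM in young control, a 5.91-fold rise with EGCG and a 9.79-fold fall with age. Its locus overlaps Araf and Timp1, and whether counting used strand is not given in the sources used here, so its level is uncertain. Syn2 was the only member under 10 CPM in every group mean, and had 6.52, 6.79 and 6.45 CPM with EGCG, 4.33, 2.9 and 4.57 CPM in aged control and 9.02, 9.41 and 9.35 CPM in young control libraries. Its adjusted p was 0.00948 for EGCG against aged control and 1.91e-06 for aged against young control. The difference between EGCG and young control (log2 −0.49, 95% interval −0.90 to −0.08, adjusted p 0.0329) was not called when any 1 EGCG or young library was left out (adjusted p 0.0549 to 0.0787), and the rise with EGCG was not called without aged control replicate 2 (adjusted p 0.0802).

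Of the 7 SNARE proteins and partners, all rose with EGCG and all fell with age, by a median of 1.51 and −2.76 on the log2 scale. SNAP-25, the membrane-side SNARE of nerve cells (Snap25, 2:136713453-136782428, plus strand), had 121, 112 and 117 CPM in the EGCG libraries, against 18.9, 17.5 and 15.8 CPM in aged control and 290, 283 and 285 CPM in young control. That is a 6.71-fold rise with EGCG (adjusted p 1.43e-33) and a 16.4-fold fall with age (adjusted p 2.11e-41), and the EGCG level was still 2.44-fold under young control. Syntaxin-3, the syntaxin of retinal ribbon synapses and also of the apical membrane of epithelia (Stx3, 19:11775118-11819403, minus strand), had 84.8, 82.1 and 86.2 CPM in EGCG-treated, 28.9, 29.5 and 30.2 CPM in aged control and 201, 202 and 196 CPM in young control libraries. Its groups did not overlap, with a 2.86-fold rise with EGCG and a 6.75-fold fall with age.

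Synaptobrevin-2, the vesicle-side SNARE (Vamp2, 11:69088490-69092384, plus strand), was, with EGCG, the member nearest to its young level. It had 187, 180 and 169 CPM in the EGCG libraries, against 107, 129 and 107 CPM in aged control and 239, 242 and 237 CPM in young control. The rise with EGCG was 1.56-fold (log2 0.64, SE 0.0598) and the fall with age 2.09-fold, small beside the 16.4-fold of Snap25 but without overlap between groups. Nsf, the ATPase that takes spent SNARE bundles apart in all cells, had 68.6, 73.9 and 72.5 CPM with EGCG, 24.6, 25.3 and 28 CPM in aged control and 163, 155 and 158 CPM in young control libraries. It lay between Vamp2 and Snap25, 2.77-fold higher with EGCG and 6.12-fold lower with age.

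The 3 complexins differ in where they act: complexin 2 at conventional synapses, complexins 3 and 4 at retinal ribbon synapses. Cplx2 had 29.4, 36.6 and 28.8 CPM with EGCG, 12.7, 12.4 and 13 CPM in aged control and 53, 59 and 52.9 CPM in young control libraries. Cplx3 (9:57599992-57606281, minus strand) had 73.1, 61.6 and 63 CPM in EGCG-treated, 8.53, 8.09 and 7.2 CPM in aged control and 99.2, 98.2 and 94.9 CPM in young control libraries. Cplx4 had 63.9, 70.1 and 57.9 CPM in the EGCG libraries, against 8.74, 10.9 and 9.68 CPM in aged control and 186, 197 and 180 CPM in young control. The ribbon forms changed more than Cplx2: the rise with EGCG was 8.27-fold for Cplx3, the largest of the 35, and 6.55-fold for Cplx4, against 2.49-fold for Cplx2. The fall with age was 12.2-fold, 19.2-fold and 4.33-fold in the same order. The log2 95% intervals of the EGCG change were 2.85 to 3.24 for Cplx3, 2.53 to 2.89 for Cplx4 and 1.10 to 1.54 for Cplx2. Cplx3 with EGCG came within 1.48-fold of young control, while Cplx4 was still 2.93-fold under it.

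**Figure D3:**
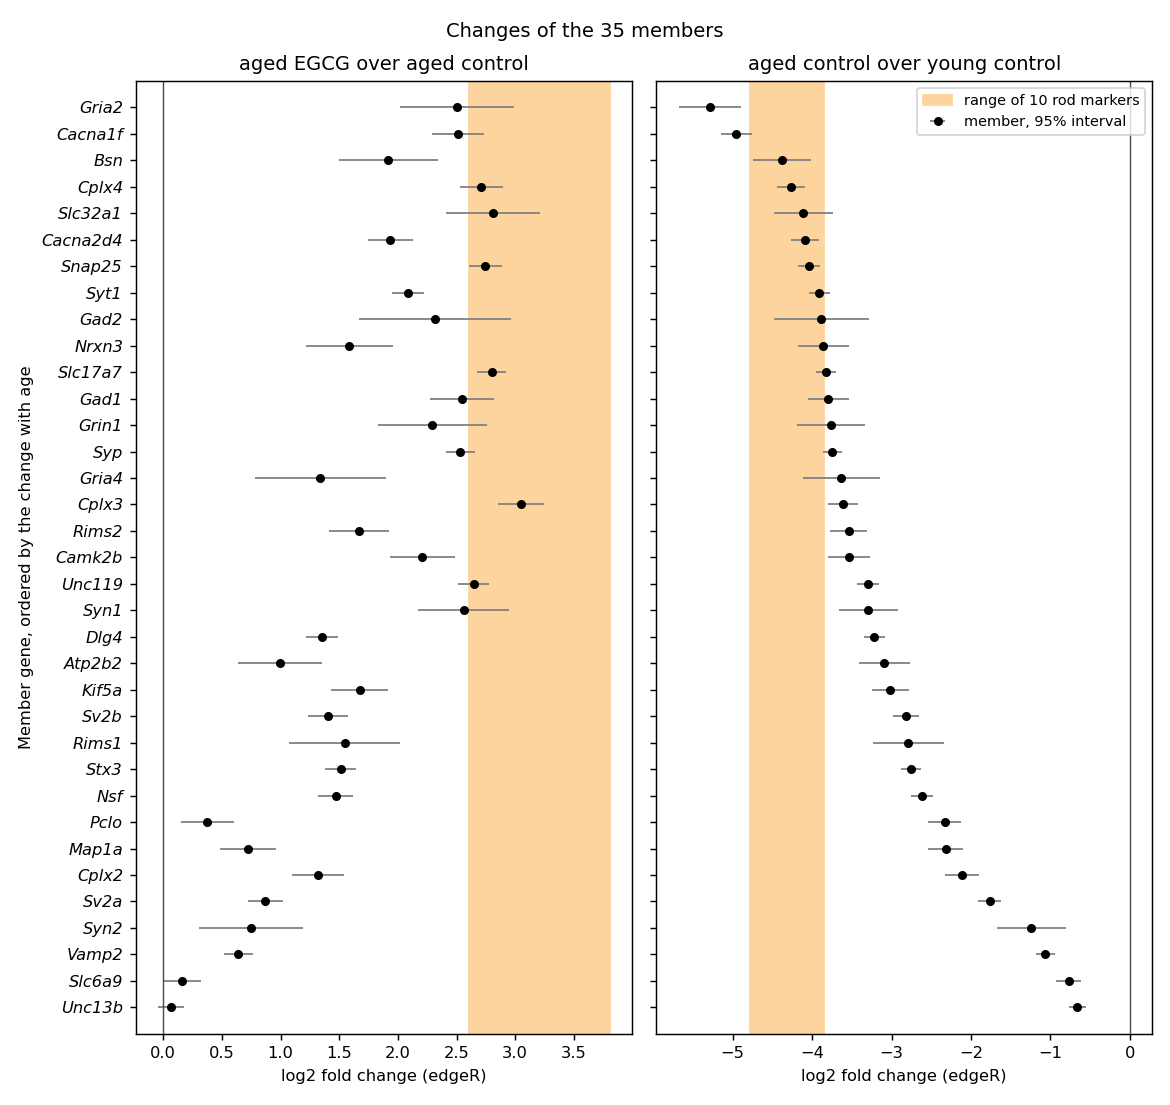
Log2 fold change of each member in aged EGCG against aged control (left) and aged control against young control (right), with 95% intervals from edgeR, ordered by the change with age; the vertical line marks 0 and the shaded band is the range of 10 rod markers. The intervals of Unc13b and Slc6a9 reach 0 on the left, and every member lies under 0 on the right. The estimates of Gria2 and Cacna1f lie beyond the rod band there, with the Cacna1f interval reaching into it.

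Of the 8 active zone and ribbon genes, 7 rose with EGCG and all 8 fell with age. Bassoon and piccolo are giant scaffolds that anchor ribbons and release sites. Bsn had 9.74, 6.58 and 7.29 CPM in the EGCG libraries, against 1.51, 3.17 and 1.47 CPM in aged control and 44.7, 42 and 43.4 CPM in young control. Pclo had 22.5, 22 and 19.9 CPM with EGCG, 14.9, 14 and 21 CPM in aged control and 87.9, 79.9 and 82.4 CPM in young control libraries. Bsn fell 20.8-fold with age and was 3.78-fold higher with EGCG, while Pclo fell 5.03-fold and was 1.3-fold higher, with 1 aged control library inside the EGCG range. The Pclo rise (adjusted p 0.0101) was not called without aged control replicate 1 (adjusted p 0.0667) or 2 (adjusted p 0.123).

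RIM proteins link vesicles to calcium channels. Rims1 had 6.88, 8.09 and 6.91 CPM in EGCG-treated, 1.44, 2.63 and 3.49 CPM in aged control and 13.6, 17.2 and 21.1 CPM in young control libraries. Rims2, the form that predominates at photoreceptor ribbons, had 20.8, 23.5 and 19.6 CPM with EGCG, 8.12, 5.66 and 6.27 CPM in aged control and 72.7, 75.9 and 84.6 CPM in young control libraries. Groups did not overlap, and the EGCG rise was 2.92-fold and 3.18-fold, with falls of 6.92-fold and 11.6-fold with age. Munc13-2, a vesicle priming factor with a widely expressed isoform (Unc13b, 4:43058953-43264871, plus strand), departed from the rest. It had 160, 164 and 162 CPM in the EGCG libraries, against 149, 149 and 166 CPM in aged control and 235, 245 and 252 CPM in young control. The EGCG and aged control libraries overlapped (log2 0.07, 95% interval −0.04 to 0.18, adjusted p 0.415), and the fall with age was 1.58-fold (adjusted p 3.71e-15), the smallest of the 35. The rise with EGCG was called with library sizes alone (adjusted p 0.00876) and with lens fibre genes as the scale (0.000111), and the fall with age was not called with the trend of level with gene length removed (log2 −0.01, adjusted p 0.864).

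Calcium enters photoreceptor terminals through the channel CaV1.4, whose pore is Cacna1f and whose auxiliary subunit is Cacna2d4. Cacna1f (X:7607083-7635196, plus strand, next to Syp on the same strand) had 30.9, 31.7 and 30.8 CPM in the EGCG libraries, against 5.57, 4.05 and 6.89 CPM in aged control and 168, 169 and 170 CPM in young control. It fell 31-fold with age (log2 −4.95, SE 0.099, adjusted p 1.42e-38) and rose 5.71-fold with EGCG, but at 18.4% of young it was lower than its neighbour Syp at 43.1%. Cacna2d4 had 48.5, 41.1 and 37 CPM in EGCG-treated, 10.8, 10.3 and 12.1 CPM in aged control and 190, 191 and 183 CPM in young control libraries, a 3.82-fold rise with EGCG and a 17-fold fall with age. Its locus overlaps Lrtm2. UNC119, a lipid-binding chaperone enriched in photoreceptors (Unc119, 11:78343482-78349164, plus strand), had 321, 298 and 327 CPM with EGCG, 58.3, 50 and 42.4 CPM in aged control and 477, 509 and 500 CPM in young control libraries. The EGCG rise was 6.26-fold (adjusted p 5.3e-34), the fall with age 9.83-fold, and EGCG libraries came within 1.57-fold of young control.

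Among the 5 genes of transmitter synthesis and transport, 4 rose with EGCG and all 5 fell with age. VGLUT1 loads glutamate into vesicles of photoreceptors and bipolar cells (Slc17a7, 7:45163949-45176142, plus strand). Slc17a7 had 265, 269 and 250 CPM in the EGCG libraries, against 35.4, 34.9 and 42.4 CPM in aged control and 536, 528 and 534 CPM in young control. The rise with EGCG was 6.96-fold (log2 2.80, SE 0.0609, adjusted p 2.34e-36), the fall with age 14.2-fold (adjusted p 1.69e-42), and EGCG libraries stood at 49% of young control.

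The other 3 called genes serve inhibition. VGAT, which loads GABA and glycine in amacrine and horizontal cells (Slc32a1, 2:158610767-158615748, plus strand), had 10.8, 14.1 and 12.6 CPM with EGCG, 2.41, 1.15 and 1.78 CPM in aged control and 30.6, 29.8 and 32 CPM in young control libraries. The GABA-making enzyme GAD67 (Gad1, 2:70553072-70602014, plus strand) had 24.5, 22.8 and 25.9 CPM in EGCG-treated, 4.54, 3.17 and 4.88 CPM in aged control and 59.9, 55 and 59.3 CPM in young control libraries. Its partner GAD65 (Gad2) had 3.44, 3.7 and 4.6 CPM with EGCG, 0.481, 1.28 and 0.542 CPM in aged control and 12, 11.9 and 10.9 CPM in young control libraries. The EGCG rises were 7.02-fold, 5.84-fold and 4.98-fold, and the falls with age 17.3-fold, 13.9-fold and 14.7-fold, without overlap of groups. Gad2 rests on 7, 19 and 7 counts in the aged control libraries.

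The glycine transporter GlyT1, found on glycinergic amacrine cells and on glia (Slc6a9, 4:117834506-117875198, plus strand), had 42.1, 47.4 and 43.4 CPM in the EGCG libraries, against 39.6, 40.9 and 38.4 CPM in aged control and 65.1, 69.5 and 68.1 CPM in young control. The EGCG libraries were above the aged control ones, but the difference was not called (log2 0.16, 95% interval −0.001 to 0.32, adjusted p 0.155). It was called higher with library sizes alone (adjusted p 0.00593), with lens fibre genes as the scale (0.000192) and by limma on log2(FPKM + 1) (0.0118) and log2(FPKM + 0.1) (0.0102). It fell 1.7-fold with age (adjusted p 4.57e-12). Its locus overlaps B4galt2 and Ccdc24, so its level is uncertain.

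The 6 genes for adhesion, receptors and postsynaptic proteins all rose with EGCG and all fell with age, by a median of 1.90 and −3.70 on the log2 scale. Gria2, the AMPA receptor subunit that keeps the channel closed to calcium (3:80681450-80802835, minus strand), had 5.71, 5.28 and 5.68 CPM in the EGCG libraries, against 0.757, 0.674 and 1.55 CPM in aged control and 38.2, 39 and 37.6 CPM in young control. Its 39-fold fall with age (log2 −5.29, SE 0.195, adjusted p 9.46e-28) was the largest estimate of the 35. The 95% interval (−5.68 to −4.89) overlaps that of Cacna1f (−5.15 to −4.75). Gria2 rests on 11, 10 and 20 counts in the aged control libraries. After a 5.67-fold rise with EGCG it was still 6.89-fold under young control. Gria4, another AMPA subunit, had 2.86, 3.36 and 3.53 CPM with EGCG, 0.825, 1.55 and 1.47 CPM in aged control and 16.1, 16 and 15.8 CPM in young control libraries. Grin1, the obligatory subunit of NMDA receptors, had 7.18, 11 and 6.37 CPM in EGCG-treated, 1.72, 2.09 and 1.16 CPM in aged control and 22.5, 22.6 and 23.5 CPM in young control libraries. Groups did not overlap in either, with EGCG rises of 2.53-fold and 4.9-fold and falls with age of 12.4-fold and 13.6-fold.

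PSD-95, a scaffold that in the retina also lines photoreceptor terminals (Dlg4, 11:70016942-70047522, plus strand), had 72, 79.9 and 79.6 CPM with EGCG, 27.6, 31.7 and 31.2 CPM in aged control and 284, 283 and 275 CPM in young control libraries. It was 2.56-fold higher with EGCG (adjusted p 1.05e-21) and 9.31-fold lower with age (adjusted p 3.56e-38). Nrxn3, a presynaptic adhesion receptor, had 7.18, 10.4 and 10.9 CPM in the EGCG libraries, against 3.3, 2.22 and 4.03 CPM in aged control and 43.3, 46 and 48.5 CPM in young control. Camk2b, the beta subunit of the calcium/calmodulin kinase II of synapses, had 18.7, 19.6 and 19.2 CPM in EGCG-treated, 4.2, 3.71 and 4.57 CPM in aged control and 45.8, 49.9 and 48.7 CPM in young control libraries. Nrxn3 was still 4.83-fold under young control with EGCG and Camk2b 2.51-fold, with all libraries of the 3 groups apart.

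The last 3 members serve transport and calcium removal. Kif5a, a nerve-cell kinesin motor, had 32.1, 30 and 23.8 CPM in the EGCG libraries, against 7.15, 10.2 and 9.6 CPM in aged control and 70.8, 74.2 and 72.6 CPM in young control. Map1a, a microtubule-binding protein whose locus overlaps Ppip5k1, had 20.1, 18.7 and 19.7 CPM with EGCG, 9.56, 12.8 and 13.1 CPM in aged control and 60.4, 57.9 and 58.4 CPM in young control libraries. Atp2b2, the plasma membrane calcium pump PMCA2, had 9.15, 6.65 and 8.29 CPM in EGCG-treated, 3.51, 3.44 and 5.19 CPM in aged control and 33.1, 33.8 and 35.8 CPM in young control libraries. EGCG libraries were higher than aged control by 3.19-fold, 1.65-fold and 1.99-fold, and aged control was under young control by 8.08-fold, 4.99-fold and 8.51-fold. Over all 35 members the largest adjusted p was 1.91e-06 (Syn2) for the fall with age and, among the 33 called, 0.0101 (Pclo) for the rise with EGCG.

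The order of levels per length changed between groups. The order in young control was led by Unc119 (364 FPKM), Slc17a7 (204), Syp (194), Snap25 (132) and Vamp2 (125). In aged control Vamp2 led with 47.7 FPKM, before Unc119 (29.5), Syp (11.6), Slc17a7 (11.5) and Slc6a9 (9.17). Unc13b was at rank 17 in young control and at rank 7 in aged control, with 7.17 FPKM there. In the EGCG libraries the order was again led by Unc119 (203 FPKM) and Slc17a7 (87.4), followed by Vamp2 (81.2), Syp (73.3) and Snap25 (47.4).

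Dividing each member by the summed rod markers of the same library sets the members beside the rod markers. Per 1000 CPM of rod markers, 22 members with EGCG and 16 in aged control were within 1.5-fold of the young ratio. The aged ratio was more than 1.5-fold above young in 17 members and below in 2 (Cacna1f and Gria2), and the EGCG ratio above in 2 and below in 11. Snap25, for example, had 13.6 CPM per 1000 with EGCG, 15.7 in aged control and 15.1 in young control, and Slc17a7 had 30.3, 33.8 and 28.1. The amacrine gene Slc32a1 had 1.45, 1.59 and 1.63. At the other end, Unc13b had 18.8 with EGCG, 139 in aged control and 12.9 in young control, Vamp2 20.7, 103 and 12.6, and Slc6a9 5.15, 35.8 and 3.57. By this ratio 5 members were more than 5-fold above young in aged control: Sv2a, Syn2, Vamp2, Slc6a9 and Unc13b. Gria2 was at 0.439 of the young ratio in aged control and had the values 0.646, 0.888 and 2.02 with EGCG, in aged control and in young control. These ratios are descriptions, and no test was made of them.

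Relatives of the members, listed as widely expressed, were tested beside them. How widely each of them is expressed was not checked here. Of 22 such genes, 4 rose and 1 fell with EGCG against aged control (median log2 0.01). With library sizes alone 6 rose and 0 fell (median 0.14). With lens fibre genes as the scale 14 rose and 0 fell (median 0.26). Of all 13711 genes, in the same order, 1894 (13.8%), 3086 and 5314 rose, and 1406, 611 and 339 fell. In aged against young control 13 of the relatives rose and 5 fell (median 0.29). With library sizes alone, or with lens fibre genes as the scale, 7 rose and 7 fell, so small rises here depend on the scaling. In that comparison 4847 of all genes rose and 4635 (33.8%) fell, against 2937 and 6445 with library sizes alone. The SNAP-25 relative Snap23 had a log2 change of 0.19 with age (95% interval −0.08 to 0.46, not called) against −4.04 for Snap25. Vamp3 had 0.92 against −1.06 for Vamp2, a rise under each scaling. Unc119b was not called at 0.21 (−0.002 to 0.42), against −3.30 for Unc119. Kif5b (0.31) and Dlg1 (0.38) were called higher, but not with library sizes alone, where Kif5b was at −0.01 and Dlg1 at 0.06, nor with lens fibre genes as the scale. Camk2g was not called (−0.09), and fell with library sizes alone (−0.41) and with the lens fibre scale (−0.38). Other relatives fell under each scaling, with log2 changes of −1.42 for Camk2d, −2.27 for Map1b and −0.90 for Atp2b4. The Map1b interval (−2.40 to −2.14) overlaps that of its relative Map1a (−2.54 to −2.10).

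**Figure D4:**
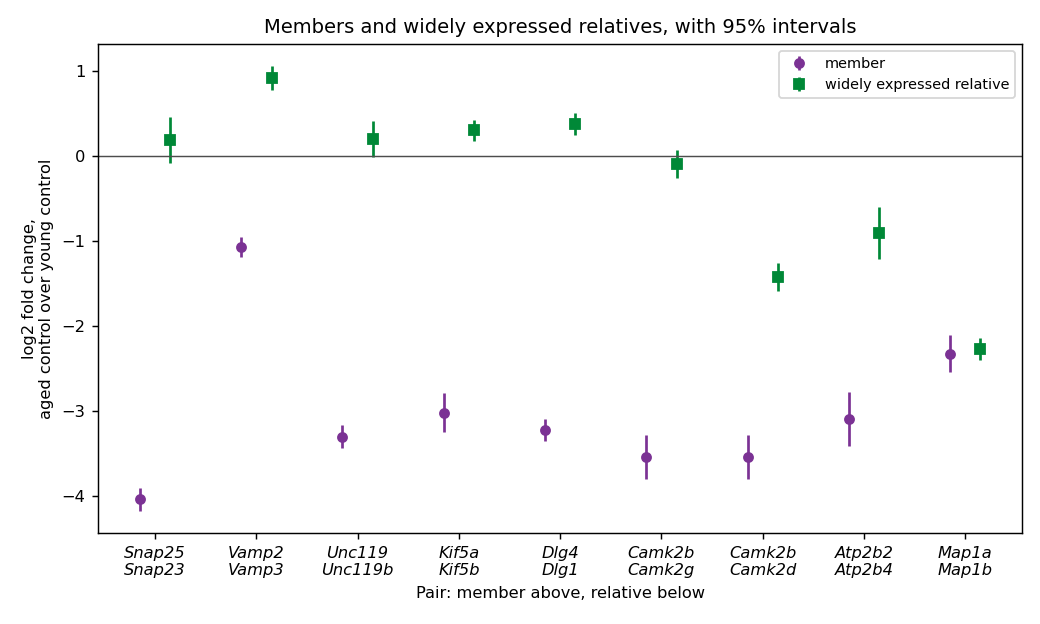
Log2 fold change of members (left of each pair) and their relatives listed as widely expressed (right) in aged control against young control, with 95% intervals from edgeR. Snap23, Vamp3, Unc119b, Kif5b, Dlg1 and Camk2g lie near or above 0, while Camk2d, Map1b and Atp2b4 lie under 0 with their member relatives.

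A wider set of 101 synapse genes outside the 35 mostly moved in the same direction. Of the 98 tested, 65 rose and 1 (Sypl) fell with EGCG against aged control, with a median of 1.13 on the log2 scale. A rise of at least 2-fold was called for 50. Of all genes tested, 13.8% rose there, and 7.41% by at least 2-fold. The number that rose was 60 in pairwise fits and 80 with lens fibre genes as the scale. With age 88 fell, 5 rose and 5 were not called, with a median of −2.87, while 33.8% of all genes fell. By role, those that fell with age were 17 of 22 vesicle and SNARE genes, 15 of 17 active zone genes, 27 of 27 genes of transmitter transport and receptors, 15 of 16 adhesion and postsynaptic genes and 14 of 16 genes of endocytosis and axonal transport. In the same order, 16, 10, 18, 7 and 14 rose with EGCG. Of this wider set, Grm6 is also a bipolar marker above and Nefl a ganglion cell marker, so these lists are not independent.

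The genes named from these roles are among the 3 with the smallest p with age in each. In the vesicle and SNARE list, Sncb fell 11.8-fold with age and rose 7.78-fold with EGCG, and Napb fell 9.71-fold and rose 3.17-fold. Cabp4, the calcium-binding partner of CaV1.4 in photoreceptors, had 28.9 ± 1.53 CPM with EGCG, 3.32 ± 0.718 CPM in aged control and 76.9 ± 7.74 CPM in young control (SD, n = 3 each), a 23.2-fold fall (adjusted p 2.08e-32) and a rise of 8.7-fold with EGCG. The channel pore gene Cacna1f fell 31-fold. Unc13a, the nerve-cell relative of Unc13b, fell 26.7-fold with age, against 1.58-fold for Unc13b.

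Tprgl was an exception in the active zone list, 2.68-fold higher in aged than in young control (adjusted p 7.39e-27) and not called with EGCG against aged control. In the list of transmitter transport and receptors, the glutamate carrier Slc1a2 fell 9.56-fold with age and Grm6, the glutamate receptor of ON bipolar cells, 18.5-fold. They rose 1.92-fold and 3.05-fold with EGCG. Nrxn2, Dlg2 and Shank1 fell 8.97-fold, 4.65-fold and 3.95-fold with age. Dynamin-1, the vesicle-retrieval GTPase (Dnm1), had 56.9 ± 0.853 CPM with EGCG, 12.9 ± 1.1 CPM in aged control and 161 ± 4.76 CPM in young control, a 12.5-fold fall with age (adjusted p 3.15e-37). Nefl, the neurofilament light chain, fell 17.7-fold and Map2 6.7-fold. Besides Tprgl, the genes that rose with age were Amph (1.98-fold), Kif3a (2.35-fold), Dag1 (1.4-fold) and Sypl (1.37-fold), of which Sypl was not called with library sizes alone or the lens fibre scale.

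Gene length moved with the EGCG changes. Over the 35 members, the Spearman correlation of length with the log2 change was −0.50 for EGCG against aged control, 0.10 for aged against young control and −0.55 for EGCG against young control, against 0.11, −0.33 and −0.36 over all 13711 genes. These are correlations across genes, which are not independent replicates. The 18 shorter members had a median of 2.52 for EGCG against aged control and the 17 longer ones 1.51. Against young control, the EGCG medians were −1.18 for the shorter and −1.86 for the longer members. Over all genes, the shortest 10% had a median of 0.52 and the longest 10% −0.57 in aged against young control. Among the longest members, Pclo (22201 bases) and Unc13b (19463 bases) had the smallest EGCG changes with Slc6a9 (3896 bases), while Bsn (19166 bases) rose 3.78-fold. With each library's trend of level with length removed, 34 members were called lower with age, all but Unc13b.

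**Figure D5:**
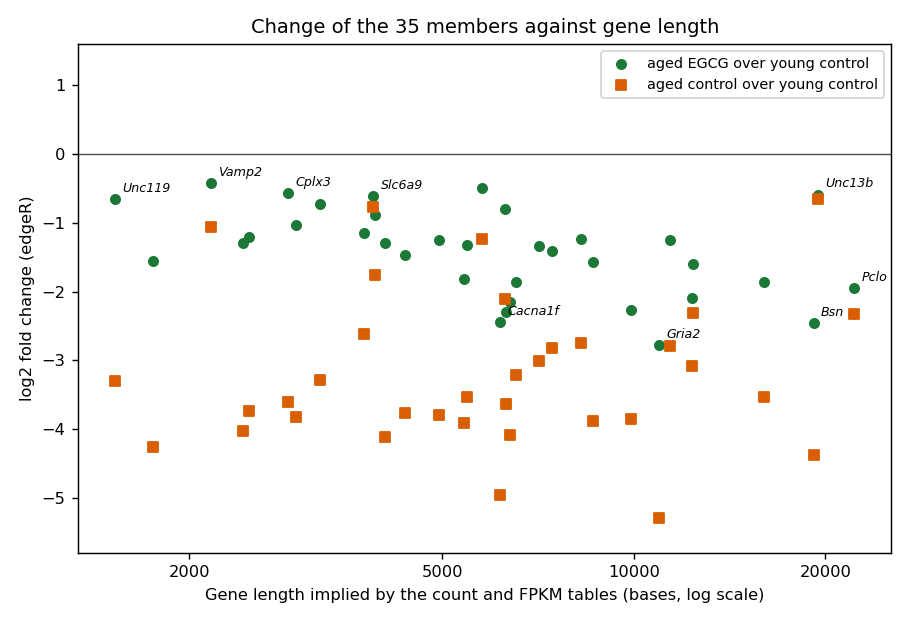
Log2 fold change of the 35 members against gene length in bases (log axis), for aged EGCG against young control (circles) and aged control against young control (squares), 1 point per gene and comparison. The circles lie lower for longer members (Spearman −0.55), and the squares show little slope (0.10).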

How the data were processed

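Per the labels' protocols, a SMARTER mRNA-Seq kit was used to prepare libraries from lens capsule RNA. The genome build named in the submitters' processing notes is GRCm38 (mm10). No aligner, counting tool or strand setting is given in the sources used here. Raw whole-number counts per gene symbol and, in a second table, FPKM values were deposited by the authors. In 138164 of 138164 entries with a count, the deposited FPKM equals count over 1 length per gene and library total, within 0.01%. Those lengths are the gene lengths used.

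The 9 libraries were grouped by their titles. All 9 entered 1 fit of group means in edgeR 4.0.16 (R 4.3.3): filterByExpr left 13711 genes, TMM factors were 0.981 to 0.989 with EGCG, 0.881 to 0.926 in aged control and 1.12 to 1.13 in young control, and the coefficient of variation between replicates was 7.89%. Tests were two-sided quasi-likelihood tests. The SE was taken from the log2 fold change and its F statistic, and intervals are 95%. Intervals reflect counting error and the spread of these libraries alone. Alternatives were library size only, RLE factors, lens fibre genes as scale, no filter, a block for replicate number, pairwise fits, DESeq2 1.42.0, limma 3.58.1 on log2(FPKM + 1) and log2(FPKM + 0.1), leaving out each library, and, chosen after seeing the data, removal of the trend with gene length. Locations are from GENCODE vM21 and promoters from RefSeq.

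The members and all gene lists were chosen with earlier results of these data known. Per-library values are given for members with at least 10 CPM in a group mean or called with a change of at least 2-fold; from each wider list the 3 called genes with the smallest p with age are named, except that some are not reported here, and other genes are named to spell out a count.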

Additional observations from a re-analysis of the deposited data

How the results depend on the processing

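The counts of members held under the alternatives. With EGCG against aged control 33 to 35 members were higher, and 31 to 33 when 1 library was left out. In aged against young control 34 or 35 were lower and in EGCG against young control 33 to 35, the lower ends with the length trend removed, and 35 and 34 with 1 library left out. What moved were counts over all genes, where the median log2 change of all genes in aged against young control was 0.02, and −0.30 with library size only and −0.27 with lens fibre genes as scale. For EGCG against aged control, all genes called higher were 1894, against 3086 with library size only and 5314 with lens fibre genes as scale, and genes called lower were 611 and 339 with those scales, 507 on log2(FPKM + 1) and 540 on log2(FPKM + 0.1). Genes called higher in aged against young control were 2937, 3049, 2947 and 2940 under the same 4 settings. The higher share of called genes for EGCG against aged control was 57.4%, and 83.5%, 94.0%, 82.6% and 82.9% under them; for aged against young control it was 51.1%, and 31.3%, 32.9%, 31.4% and 31.5%; for EGCG against young control it was 50.7%, and 35.7% with library size only. Unc13b reversed to 0.01 on the log2 scale in EGCG against young control with the length trend removed (adjusted p 0.865). Unc13b (0.19 and 0.31) and Slc6a9 (0.29 and 0.41) were called higher with EGCG under library size only and lens fibre genes as scale, and Slc6a9 on both FPKM scales. The Pclo rise was not called on log2(FPKM + 1) (adjusted p 0.119) or log2(FPKM + 0.1) (0.0834). The cause of these shifts was not tested. On log2(FPKM + 1), 20 members rose at least 2-fold with EGCG, against 27. Same-numbered libraries showed no shared deviation (correlations −0.005 to 0.036). This cannot tell whether the numbers mark pairs, since counting noise can hide a shared deviation. With a replicate block 33 members were higher with EGCG and 35 lower with age, as without it. All genes called for EGCG against aged control were then 1905 higher and 1433 lower.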

Other observations

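At 6 members (Syn1, Syn2, Syt1, Slc6a9, Map1a and Cacna2d4) the locus is shared with another protein-coding gene, and where strand was not used in counting their reads could be mixed. Ccdc24, which overlaps Slc6a9, had mean levels of 15.2 CPM with EGCG, 2.5 CPM in aged control and 43.3 CPM in young control, a wider span than Slc6a9 itself, while B4galt2, which also overlaps it, had 30.7, 27.5 and 28.7 CPM. Ppip5k1, over Map1a, had 33.2 CPM with EGCG, 23 CPM in aged control and 94.7 CPM in young control. Lrtm2, over Cacna2d4, was highest in aged control, with 38.7 CPM with EGCG, 44.1 CPM in aged control and 29.9 CPM in young control. Araf, over Syn1, had 44.2 CPM with EGCG, 46.8 CPM in aged control and 92.8 CPM in young control. Timp4, over Syn2, was listed at 0 in the EGCG and aged control means and at 0.144 CPM in young control.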
